A study of Mus musculus with 2 samples.

Results

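The Myc, Max and Mxd network was followed through its 10 genes Myc, Mycn, Mycl1, Max, Mxd1, Mxd3, Mxd4, Mxi1, Mnt and Mlxipl, taken by gene symbol from both expression tables. All 10 of 10 were found among the 22558 genes listed, and all 10 passed the filter of a mean of at least 1 FPKM over both libraries, against 12004 of all genes. RNA was sequenced from cells sorted by flow cytometry, directly and without treatment, from breast tumours of FVB mice. The group TIC was 1 library of tumour-initiating cells and the group NTC was 1 library of non-tumorigenic cells, so no spread between replicates exists and no test was made. The sources used here do not give the age of the animals, the tumour model, how many tumours were pooled or the surface markers used for sorting. Levels are in FPKM, fragments scaled for transcript length and sequencing depth, and are given as TIC against NTC.

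Proteins of this network bind DNA in pairs through a basic helix-loop-helix zipper, mostly at the E-box, the sequence CACGTG. Max is the shared partner. Pairs of Max with Myc, N-Myc or L-Myc recruit coactivators and raise transcription of growth genes, whereas pairs of Max with Mnt or an Mxd protein recruit the Sin3 corepressor and lower it. Mlxipl (ChREBP) belongs to a parallel branch that pairs with Mlx and answers to glucose. In the mouse mammary gland Myc is a well-known oncogene, and Mycn is best known from the embryo and from neural tumours.

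Promoters of 9 of the 10 genes, all but Myc, were matched in RefSeq (build GRCm38.p6, 300 bases each, from 250 before to 50 after the start), as 12 promoters. The E-box was searched as CACGTG, which reads the same on both strands, and 4 of the 9 genes held it in at least 1 promoter. Of the measured genes with a promoter in the table, 12.01% held it, and of all 32851 promoters 7.15%. The 4 sites are shown because they are letters that the network's own proteins read, with 12 bases on each side and the E-box in capitals.
Max (chr12:76962234-76962263, minus strand, E-box starting at -3): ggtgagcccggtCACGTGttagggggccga
Mxd4 (chr5:34187912-34187941, minus strand, E-box starting at -219): gggctgggccacCACGTGctgttgctaagc
Mnt (chr11:74830789-74830818, plus strand, E-box starting at -123): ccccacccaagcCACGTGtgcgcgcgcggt
Mlxipl, one of its 2 listed promoters (chr5:135089780-135089809, plus strand, E-box starting at -98): gcggctgccatcCACGTGctaaggagagaa
These 4 genes included ones with higher and with lower levels in TIC, and a match is not evidence of binding.

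Mycn was the member with the largest difference. Its promoter was the only 1 of these 12, none of them of Myc, with a match to E2F motifs. Such a match is not evidence of binding, and the part of E2F factors in the Mycn levels was not tested. E2F factors are regulators of genes for DNA replication. The words searched were TTTGGCGC, TTTCCCGC, TTTGCCGC and TTTCGCGC on both strands, which 2.26% of all promoters held. The 250 bases before the start of Mycn are shown with the 2 matches that do not overlap in capitals, at -183 and -168 (chr12:12941837-12942086, build GRCm38.p6, minus strand). A match overlapping an earlier one was not counted. The letters GCGCgaaa, which begin inside the match at -183, are such a match, to TTTCGCGC on the other strand.
Mycn: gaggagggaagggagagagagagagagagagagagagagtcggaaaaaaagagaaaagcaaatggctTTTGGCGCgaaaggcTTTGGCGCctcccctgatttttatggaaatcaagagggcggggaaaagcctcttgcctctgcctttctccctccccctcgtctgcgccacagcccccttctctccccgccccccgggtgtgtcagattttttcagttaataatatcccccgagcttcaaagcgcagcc

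The activating members differed in kind between the libraries. Mycn, the gene of N-Myc (chromosome 12, 12942899 to 12948642, build mm9), stood at 67.9 FPKM in TIC and at 0.255 FPKM in NTC. The level in TIC placed it second among the members there, just above Max, whereas in NTC it was the lowest of the 10. The levels correspond to roughly 3814 and 15 reads. The FPKM ratio was 267-fold, and its 95% interval from counting alone (exact Clopper-Pearson on the estimated reads) was 161 to 480. This interval and those below cover neither amplification nor the variation between animals and sorts. On the log2(FPKM + 1) scale used for comparisons between genes, which understates differences of low genes, the log2 ratio of TIC to NTC was 5.78. Of the 12004 measured genes, 57 had a larger ratio toward TIC, since Mycn ranked at 58.

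Myc itself (chromosome 15, 61816896 to 61821916) went the other way by a modest amount. It had 133.0 FPKM in TIC and 231.4 FPKM in NTC, a log2 ratio of -0.79, and was the highest member in both libraries. Among all measured genes its level ranked at 356 in TIC and 210 in NTC. NTC was 1.74-fold higher, with a counting interval of 1.69 to 1.79. The ratio lay at percentile 19.0 of all measured genes. Mycl1, the gene of L-Myc (chromosome 4, 122673342 to 122679723), was low in both, with 6.08 against 4.97 FPKM and a log2 ratio of 0.25.

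Added up, the 3 Myc genes gave nearly the same total with a different make-up. Their summed level was 207.0 FPKM in TIC and 236.6 FPKM in NTC. Mycn made up 32.8% of the sum in TIC and 0.108% in NTC, and Myc 64.2% and 97.8%. Myc stood 1.96-fold above Mycn in TIC and 909-fold above it in NTC. The share of Mycl1 was 2.94% in TIC and 2.10% in NTC.

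**Figure D1:**
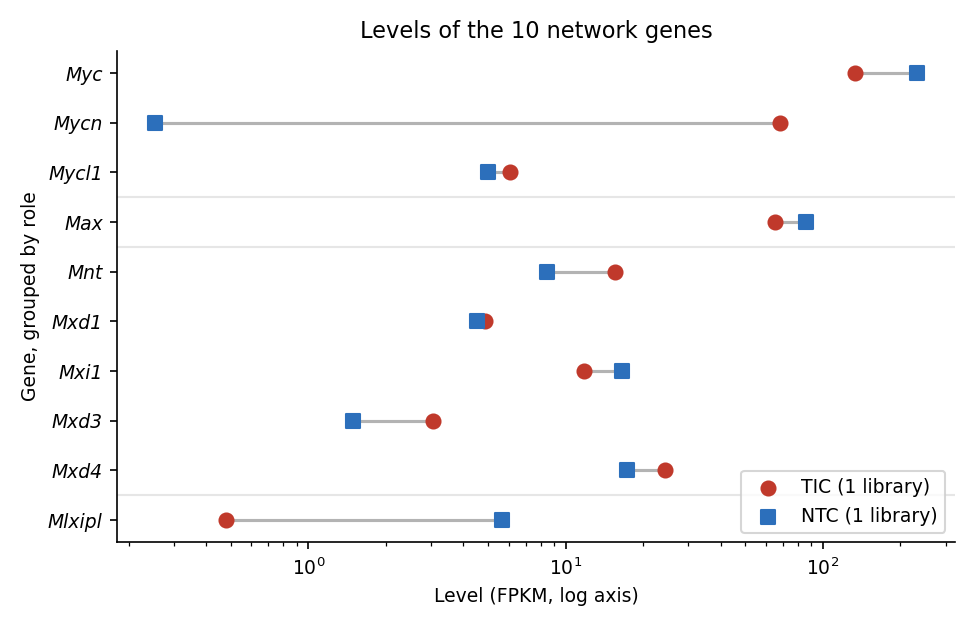
Level of each network gene in FPKM (log axis) in the TIC library (circles) and the NTC library (squares), 1 library each, with the genes grouped by role from top to bottom as Myc family, Max, Mnt and Mxd genes, and Mlxipl. Mycn (67.9 against 0.255 FPKM) and Mlxipl (0.479 against 5.65 FPKM) are far apart. The other 8 genes are closer, with Mxd3 the furthest apart of them (2.05-fold higher in TIC).

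**Figure D2:**
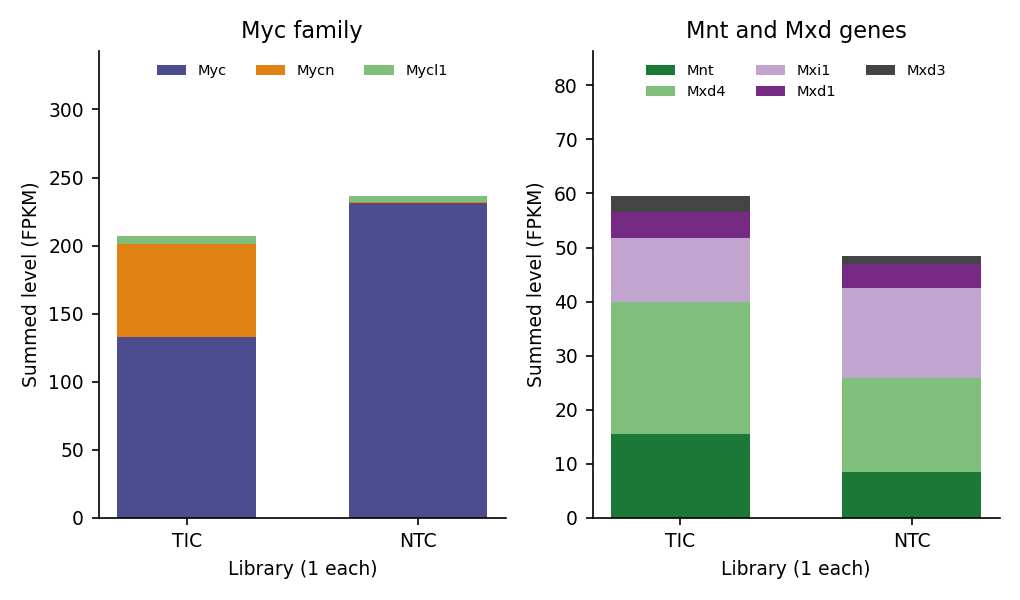
Summed FPKM of the 3 Myc genes (left) and of Mnt and the 4 Mxd genes (right) in each library, stacked by gene from 0. The Myc sums are 207.0 in TIC and 236.6 in NTC, with Mycn visible as a block in TIC alone, and the Mnt and Mxd sums are 59.6 and 48.5.

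Max, the shared partner of the Myc and Mxd arms, differed little. It had 65.1 FPKM in TIC and 86.2 FPKM in NTC (chromosome 12, 78038256 to 78063235), a log2 ratio of -0.40 at percentile 36.6 of all genes. The Myc genes together had 3.18 times the level of Max in TIC and 2.75 times in NTC. For Myc alone the ratio to Max was 2.04 in TIC and 2.69 in NTC, and for Mycn it was 1.04 in TIC and 0.00296 in NTC.

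The repressor members were all below Max in both libraries and had differences in both directions, all under 2-fold on the log2(FPKM + 1) scale. Mnt, the broadly expressed antagonist of Myc (chromosome 11, 74644426 to 74659227), had 15.5 against 8.48 FPKM. Its log2 ratio of 0.80 was the second highest of the 10 at this pseudocount, though not at one of 0.1, where Mxd3 was above it, and the ratio of levels was 1.83 with a counting interval of 1.68 to 1.997. Mxd4, the highest repressor gene in either library (chromosome 5, 34519229 to 34530359), had 24.3 against 17.4 FPKM, a log2 ratio of 0.46. Mxd genes are known for levels that go up as cells leave the cycle and differentiate, with the exception of Mxd3, which is linked to S phase.

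Mxi1 was the repressor gene with the lower level in TIC. Its level was 11.8 FPKM in TIC and 16.6 FPKM in NTC (chromosome 19, 53384996 to 53450300), a log2 ratio of -0.46. Mxd1 was nearly level, with 4.84 against 4.53 FPKM (chromosome 6, 86597039 to 86619153), and its counting interval for the ratio of levels, 0.938 to 1.22, included equality. Mxd3 had 3.06 against 1.49 FPKM (chromosome 13, 55423416 to 55431091), resting on roughly 85 and 43 reads. The ratio of levels was 2.05 for Mxd3, with a counting interval of 1.402 to 3.03, but the log2 ratio with the pseudocount was 0.70, below the 2-fold line. The files give Mxd3 the same locus as Prelid1, which had 122.4 against 120.5 FPKM, and since the sources do not say how reads of overlapping genes were assigned, the value of Mxd3 is uncertain.

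Summed over Mnt and the 4 Mxd genes, the repressor side had 59.6 FPKM in TIC and 48.5 FPKM in NTC. Mnt made up 26.1% of this sum in TIC and 17.5% in NTC, and Mxi1 19.8% and 34.3%. The sum was 0.915 times the level of Max in TIC and 0.563 times in NTC. The Myc genes together stood 3.47-fold above the repressor genes in TIC and 4.88-fold above them in NTC. These are ratios of transcript levels and say nothing of protein.

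Mlxipl, the glucose-responsive factor ChREBP, was the member with the largest difference toward NTC. It had 0.479 FPKM in TIC and 5.65 FPKM in NTC (chromosome 5, 135582783 to 135613792), roughly 36 and 442 reads. NTC was 11.8-fold higher, with a counting interval of 8.40 to 17.0, and the log2 ratio was -2.17, at percentile 4.28. Its partner Mlx had 8.45 against 11.6 FPKM, and the related Mlxip (MondoA) had 54.2 against 47.3 FPKM. Mlxip thus stood 113-fold above Mlxipl in TIC and 8.38-fold above it in NTC.

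By count, 1 of the 10 genes (Mycn) was at least 2-fold higher in TIC, where 14.6% of all measured genes were. Likewise 1 of the 10 (Mlxipl) was at least 2-fold lower, against 13.8% of all measured genes. Taken in either direction this was 2 of 10 against 28.4%, so the share of members past 2-fold was no larger than that of genes in general. The median log2 ratio of the 10 was 0.16, and that of all measured genes was -0.16.

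**Figure D3:**
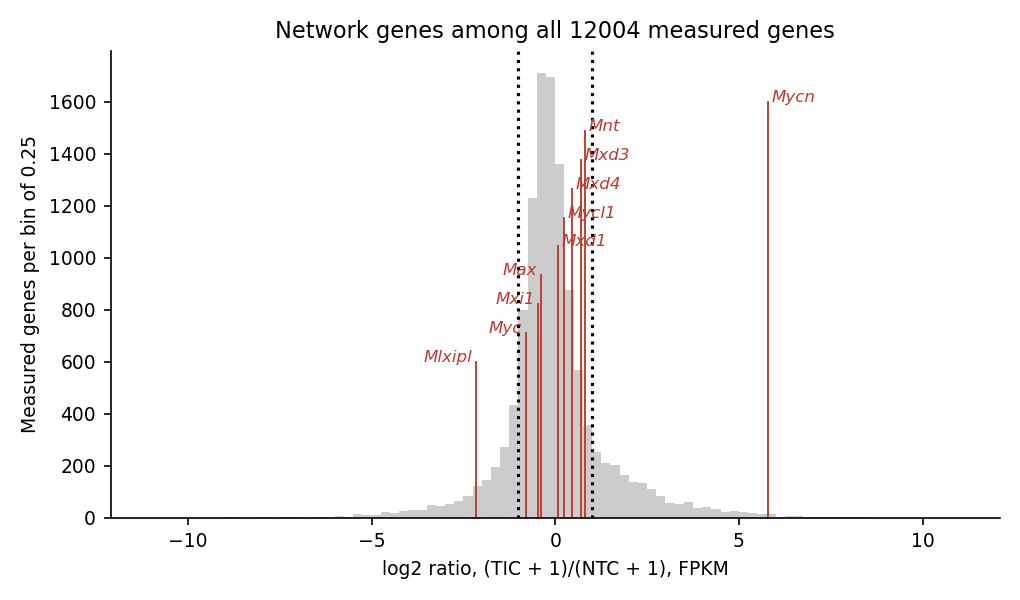
Number of measured genes in each bin of log2((TIC + 1)/(NTC + 1)) (grey), with the 10 network genes as labelled lines and the 2-fold bounds dotted; the heights of the lines only separate the labels. Mycn (5.78) lies far in the upper tail and Mlxipl (-2.17) in the lower one, and the other 8 lie between the bounds.

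Markers of mammary lineage separated the libraries, unlike most network genes. All 8 basal markers examined, among them Acta2 (2101 against 6.13 FPKM) and Krt14 (134.3 against 16.01), were higher in TIC by 2-fold or more, with summed levels of 3727 and 32.8 FPKM. All 8 luminal markers, such as Krt19 (2.56 against 1176 FPKM) and Krt8 (11.6 against 314.2), were lower by 2-fold or more, with sums of 26.1 and 3565 FPKM. Of 7 fibroblast markers 4 were measured, all 4 higher in TIC, with sums of 173.8 and 2.44 FPKM that consisted mostly of Dcn (151.8 against 1.51). Col1a2 (9.56 against 0.0119 FPKM), Pdgfra (8.83 against 0.513) and Pdgfrb (2.44 against 0.0701) were the other 3, while Col1a1 had 0.459 against 0.339, and Col3a1, with 0.221 FPKM in TIC, was listed at 0 in NTC. Markers of lymphocytes, myeloid cells, endothelium and adipocytes summed to 0.342, 2.44, 3.12 and 0.131 FPKM in TIC and to 0, 7.34, 0.351 and 0.0798 FPKM in NTC, and Ptprc, the pan-leukocyte marker, was listed at 0 in both. The highest single markers among these were Kdr in TIC (1.61 FPKM) and S100a8 in NTC (5.11 FPKM). The part of lineage and of fibroblast markers in the Mycn and Mlxipl values was not tested. In these bulk libraries fewer cells of a type and less RNA per cell cannot be told apart.

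Factors that work with the network were close to level. Of 10 other network and E-box factors 8 were found and 7 measured, and all 7 were within 2-fold with a median log2 ratio of -0.01. The largest were those of Mlx (-0.42) and Mlxip (0.19). Mga, a Max partner, had 27.2 against 26.7 FPKM, Bmyc, a short Myc relative, 55.4 against 53.7, and Zbtb17 (Miz-1), through which Myc represses genes, 6.09 against 6.82. Usf2, another E-box binder, had 27.7 against 30.03 FPKM. All 16 coactivators of Myc were within 2-fold as well (median -0.15), from Smarcb1 of the SWI/SNF remodeller (46.2 against 38.7 FPKM) to Actl6a (12.4 against 16.3). Trrap, the scaffold of histone acetyltransferases that Myc binds, had 38.99 against 34.5 FPKM, the acetyltransferase Crebbp 95.6 against 83.3, the elongation kinase Cdk9 9.35 against 11.5, and Wdr5, which anchors Myc on chromatin, 11.6 against 14.9. The files describe Mga, Bmyc, Trrap and Cdk9 by several gene identifiers, so their values may combine or split genes.

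Of the 18 genes of the Sin3 and NCoR corepressors, through which Mxd and Mnt act, 17 were within 2-fold and the median was -0.15, whereas 28.4% of all measured genes were past 2-fold. Brms1, a Sin3 complex subunit, was the exception, with 6.28 against 16.0 FPKM. Hdac2 (65.9 against 36.4 FPKM), Sap30 (29.5 against 15.1) and Brms1l (9.002 against 4.98) were higher in TIC, and Hdac3 (26.8 against 46.6) and Suds3 (11.1 against 19.9) lower. Sin3a itself had 26.0 against 30.1 FPKM. Of 19 genes that govern the stability of Myc proteins, 2 were higher in TIC by 2-fold or more (10.5%) and 1 was lower by as much (5.26%), smaller shares than the 14.6% and 13.8% of all measured genes. The ubiquitin ligases Fbxo32 (95.8 against 12.4 FPKM) and Trim32 (55.9 against 14.1) were the 2, and the kinase Pim1 (4.61 against 20.2) the other. Fbxw7, the ligase that marks phosphorylated Myc and N-Myc for destruction, had 12.7 against 13.2 FPKM, and Aurka, a kinase that shields N-Myc from it, 7.53 against 12.04. Ppp2r5a, a phosphatase subunit, had 5.66 against 11.2 FPKM.

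Genes that Myc proteins are known to induce were mostly slightly lower in TIC, with a pair of large exceptions. Of 43 measured, 35 had lower values in TIC (81.4%, against 59.1% of all measured genes) and 32 were below the median gene. The median log2 ratio was -0.48. At least 2-fold lower were 6 (13.95%, close to the 13.8% of all genes), with Shmt1 of one-carbon metabolism (5.93 against 25.4 FPKM), the transferrin receptor Tfrc (8.33 against 30.1) and Prdx3 (15.2 against 37.8) the furthest. Ncl (nucleolin), near the middle of the list, had 106.4 against 155.4 FPKM.

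The exceptions were Ccnd2 and Odc1, the 2 genes of that list at least 2-fold higher in TIC. Ccnd2, cyclin D2 of the G1 phase, had 98.2 FPKM in TIC and 0.133 FPKM in NTC (chromosome 6, 127075727 to 127162437, build mm9), a log2 ratio of 6.45, larger than that of Mycn. Odc1, ornithine decarboxylase of polyamine synthesis and a classic Myc target, had 228.4 against 14.4 FPKM (chromosome 12, 17551679 to 17558308), a log2 ratio of 3.89. Next came Tert, the telomerase subunit, with 5.72 against 3.07 FPKM. The libraries also differed in the basal and luminal markers above, and the part of lineage in the Ccnd2 and Odc1 values was not tested. The E-box occurred in the promoters of 10 of the 37 listed genes that had one in the table (27.0%, against 12.01% of measured genes). Among them were Cdk4 (200.3 against 152.5 FPKM) and Ldha (444.1 against 484.6), but not Odc1. A gene counted if any of its promoters held the E-box, and the 37 genes had 54 promoters, against 12160 for 9478 measured genes. No promoter of Ccnd2 was used here.

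Genes that Myc is known to repress were spread widely. Of 11, 4 were higher in TIC by 2-fold or more (36.4%, against 14.6% of all measured genes) and 3 were lower by as much (27.3%, against 13.8%), beside a median log2 ratio of 0.85. Higher were the cell cycle inhibitors Cdkn1c (79.3 against 3.18 FPKM) and Cdkn2b (14.03 against 1.74), Ndrg2 (53.5 against 4.82) and Gas1 (12.1 against 3.999). Lower were Ndrg1 (43.5 against 118.7 FPKM), the inhibitor Cdkn1b (6.15 against 15.3) and cyclin D1, Ccnd1 (326.8 against 691.5). Ccnd1 and Ccnd2 of the other list thus differed in opposite directions, and Ccnd1 was the higher of the 2 in both libraries.

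Genes that MondoA and ChREBP are known to induce were lower in TIC, the same direction as Mlxipl. Of 16, 13 were measured, 9 of which were at least 2-fold lower (69.2% against 13.8% of all measured genes) and none at least 2-fold higher. The median log2 ratio was -1.23. Gpd1 of glycerol phosphate synthesis had 0.0242 against 60.7 FPKM, Thrsp, a lipogenic regulator, 5.45 against 69.0, and Me1, malic enzyme, 4.74 against 31.9. Txnip and Arrdc4, arrestin-like genes that report glucose through Mlxip and Mlxipl, had 65.2 against 154.1 and 4.31 against 20.0 FPKM. Khk (8.81 against 4.80 FPKM) and Mid1ip1 (3.90 against 3.33) were higher in TIC. Several of these genes also serve milk fat synthesis in luminal cells, and the luminal markers above were lower in TIC too. Their part was not tested.

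Proliferation genes, which Myc activity raises in many settings, were lower in TIC throughout the list. All 25 had lower values, against 59.1% of all measured genes, and 24 of them were below the median gene. At least 2-fold lower were 8 (32.0%, against 13.8% of all measured genes). The list had a median of -0.73 on the log2 scale. The largest differences were those of the replicative helicase subunits Mcm6 (16.1 against 73.5 FPKM), Mcm5 (12.2 against 36.4) and Mcm2 (21.9 against 57.1, described by several gene identifiers), whereas Ccne1 was nearly level at 1.87 against 2.15. Mxd3, the repressor linked to S phase, had the opposite direction by its values given above.

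**Figure D4:**
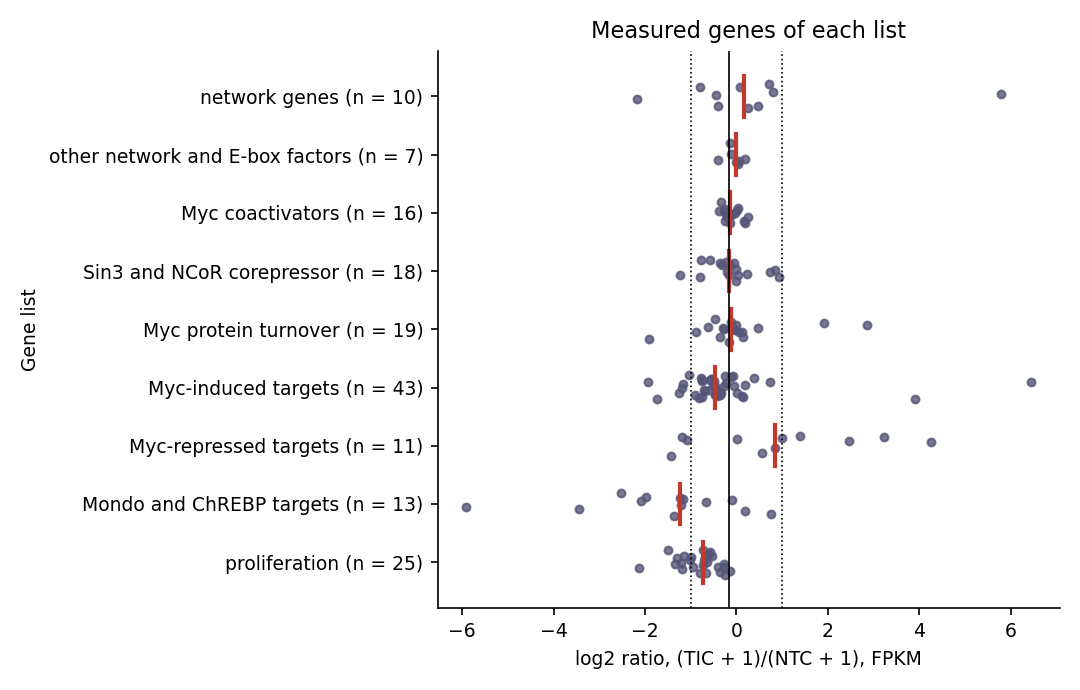
Log2((TIC + 1)/(NTC + 1)) of every measured gene (points) in the network and in the lists of its partners, targets and proliferation genes, with the median of each list (thick bar), the median of all measured genes (solid line, -0.16) and the 2-fold bounds (dotted). Most partners gather around the line, but Fbxo32 and Trim32 lie past 2-fold on the right and Pim1 and Brms1 on the left. Most Mondo and ChREBP targets (median -1.23) and proliferation genes (-0.73) lie to the left of the line. Ccnd2 and Odc1 stand apart on the right among the Myc-induced targets.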

How the data were processed

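FPKM per gene were used as deposited by the authors, 1 table per library. Build mm9 and the tools TopHat 1.4.0, CASAVA 1.8.2, Cuffdiff and Cufflinks are listed in the submitters' processing notes, without roles. Per the labels' protocols, 15 ng of total RNA was amplified before library making, which can alter the share of reads a gene gets. The locus heading names a human build, but 99.7% of 20009 symbols matched in RefSeq lay on the same mouse chromosome. Starts count from 0 in the files (locus length equalled the RefSeq length for 6724 genes that way and 448 otherwise), so 1 was added.

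Depth was estimated from low FPKM × kb of olfactory and vomeronasal receptor genes (loci under 1.5 kb, median of values from 0.035 to 0.065) as 21.0 M fragments for TIC and 21.6 M for NTC. This is rough, because the window limits it. Values up to 3 reads lay within 0.15 of a whole number in 34 of 46 cases for TIC and 50 of 60 for NTC. These cases include the 23 and 39 values that set the estimate, so the count is no independent check of it. Reads per member used the longest RefSeq-matched transcript in GENCODE M21.

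Log2((TIC + 1)/(NTC + 1)) was computed with Python 3.11.15 and pandas 2.3.3, counted at 2-fold, and tested on simulated data. The simulation held changes larger than 2-fold and counting noise only. It therefore says nothing of amplification or of the variation between animals and sorts. No count model was fitted to FPKM. Alternatives were pseudocounts of 0.1 and 5, a filter at 5 FPKM or none, centring on the median gene and equal FPKM sums. The network genes and the lists were chosen with earlier results of these data known. Named were all members and, per list, up to 3 genes furthest from 0 in each direction and the highest cell marker of a library; Sin3a, Fbxw7, Txnip, Arrdc4, Cdk4, Ldha, Ncl, Ccne1, Gas1, Ptprc, Col1a2, Pdgfra, Pdgfrb, Col1a1, Col3a1 and the neighbouring genes were named after their values were seen. Some genes that this rule takes are left out of the text.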

Additional observations from a re-analysis of the deposited data

How the results depend on the processing

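No network gene changed direction under any of the 6 alternatives. The log2 ratio of Mycn ranged from 3.80 (pseudocount 5) to 7.58 (pseudocount 0.1), that of Myc from -0.80 to -0.62 and that of Mlxipl from -3.31 to -0.96. Mlxipl therefore lost its place past 2-fold with a pseudocount of 5, which left 0 network genes at least 2-fold lower, and also with a filter at 5 FPKM, which removed Mlxipl, Mxd1 and Mxd3 and left 0. Mxd3 reached at most 0.99 and Mnt at most 0.97. With a pseudocount of 5, 3 Myc-induced targets and 0 corepressor genes were at least 2-fold lower. With centring on the median gene, or with equal FPKM sums, 2 corepressor genes were at least 2-fold higher. The other counts of the partner, target and proliferation lists stayed within 1.5 times, and the 8 basal and 8 luminal markers kept their counts, while a filter at 5 FPKM left 1 fibroblast marker higher (Dcn). Over all measured genes, 1086 were at least 2-fold higher and 921 lower with a pseudocount of 5, against 1749 and 1658, and 1108 were higher with a filter at 5 FPKM. The median gene had a log2 ratio of -0.16, so centring moves every value toward TIC by that distance. No paired analysis was possible because each group has 1 library. Levels below 1 FPKM rest on few reads, about 15 for Mycn in NTC and 36 for Mlxipl in TIC.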

Other observations

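Genes that lie beside Mycn and Mlxipl, the 2 members with the largest differences, and beside Myc were looked at after the values were seen. Ddx1, an RNA helicase gene and the only gene within 300 kb of Mycn in the files, had 44.2 against 51.1 FPKM, a log2 ratio of -0.20 beside the 5.78 of Mycn. Around Myc, 2 neighbours were measured, both listed 47.6 kb away and both with higher levels in TIC, opposite to the direction of Myc. The non-coding gene Pvt1 had 3.38 against 1.85 FPKM, and H2afy3 had 3.54 against 0.524 FPKM. Whether these neighbours share reads was not tested. Within 300 kb of Mlxipl, 16 neighbours were measured. TIC was lower by 2-fold or more for 6 of them and higher by as much for 2, where 13.8% and 14.6% of all measured genes were. The median log2 ratio of the 16 was -0.27, beside -0.16 for all measured genes. The 6 included the tight junction genes Cldn3 (0.181 against 274.8 FPKM) and Cldn4 (0.181 against 66.3) as well as Abhd11 (10.3 against 48.0). Cldn3 is also one of the 8 luminal markers above, and the part of lineage in these values was not tested. Closer to Mlxipl, Tbl2 had 11.7 against 12.3 FPKM and Bcl7b 11.3 against 12.2 FPKM, whereas Vps37d, which lies between these in distance, had 2.57 against 0.411 FPKM.

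The E2F words counted in the Mycn promoter occurred in 5 of 21 proliferation genes with a promoter in the table (23.8%) and in 4.96% of measured genes. Of measured genes at least 2-fold higher in TIC 2.25% held them, and of those at least 2-fold lower 4.28%. The E-box occurred in 10.5% and 10.4% of these sets, nearly the same share in both directions.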
